A study of Mus musculus with 16 samples.

Results

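Immediate early genes are transcribed within minutes of a stimulus from factors already present in the cell, without new protein synthesis. The 10 genes described here are Fos and Fosb (Fos family), Jun, Junb and Jund (Jun family), the related leucine zipper factor Atf3, the zinc finger factor Egr1, the immediate early response genes Ier2 and Ier3, and the phosphatase gene Dusp1. They were taken by name from the UMI count table, where they are 10 of 17721 genes, and all 10 were found. A UMI (unique molecular identifier) marks 1 captured RNA molecule, so that its copies are counted once. The genes were chosen as a family known to respond to the dissociation of tissue into single cells, and the rule names them without a threshold on any value.

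The study compared 3 positions along the mammary ductal tree of C57BL/6 mice in puberty, at 5 weeks of age. Single pieces of tissue (fragments) were dissected from 4 nipples, 6 ducts and 6 terminal end buds (TEBs, the club-shaped growing tips of the ducts). By the published methods the mice carried Krt14-Cre and the Rosa26-mTmG reporter, in which Cre made under a keratin promoter switches the membrane dye of a cell and its progeny. Nipple, duct and TEB shared these alleles. Each fragment was digested in warm collagenase and then in TrypLE, and its cells were sorted 1 per well into a 96-well plate that held lysis buffer, ERCC spike-in RNA and a well barcode. The 3 prime ends of the RNAs were then sequenced. No undissociated or cold-dissociated tissue was analysed here, so the levels below are levels after dissociation and give no share that was present in the tissue.

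Fos and Jun proteins pair through leucine zippers into the AP-1 factor, which binds DNA and switches on genes of growth, stress and repair. Mitogens and stress act through the MAP kinases on factors waiting at the promoters of these genes, and Dusp1 is a phosphatase that is itself induced and then switches the MAP kinases off, so that a burst ends within an hour or so. Atf3 is induced by many kinds of cell stress, Egr1 by serum and growth factors, Ier2 encodes a nuclear protein, and Ier3 encodes a protein that acts in survival of stressed cells. In single-cell data these genes are often read as a trace of enzymatic digestion, since tissue that was kept warm for longer tends to show more of them.

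The promoters of several of these genes hold binding sites for the cyclic AMP response factors and for AP-1 itself, which is why the following stretches are shown. Promoter sequence (from 250 bases before to 50 bases after the start site, RefSeq, build GRCm38.p6) was matched for 8 of the 10 genes, all but Egr1 and Ier2. Letters were searched on both strands for the cyclic AMP response element TGACGTCA, its shorter core TGACGT (which lies within it), the variant TGACATCA, the AP-1 site TGACTCA and the CArG box of serum response factor. Capitals mark the match, and each 30-base stretch is written 5′ to 3′ along the strand of its gene.
Fos: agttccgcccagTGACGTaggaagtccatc
Jun: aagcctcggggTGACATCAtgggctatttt
Atf3: attaatagcattACGTCAgcctgggattgg
Dusp1: ggtagggcgggTGACGTCAccgcccggtca
Dusp1: ctcctaggccgaTGACGTctttgcttttgg

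The Fos stretch is at chr12:85473812-85473841 (plus strand) with its match 66 bases before the start, and the Jun stretch at chr4:95052249-95052278 (minus strand) with its match 45 bases before. The Atf3 stretch is at chr1:191183324-191183353 (minus strand), 8 bases before the start, and holds the core on the opposite strand. The Dusp1 stretches are at chr17:26508597-26508626 and chr17:26508646-26508675 (minus strand), 143 and 191 bases before the start. Each distance is to the RefSeq start that belongs to the promoter entry. Of 32851 promoters of the same length, 1.79% held TGACGTCA, 7.51% TGACGT, 3.62% TGACATCA, 5.2% TGACTCA and 1.63% a CArG box. No TGACTCA or CArG match lay in the 8 windows. These are matches of letters, and binding was not measured. In the GENCODE annotation of mm10, Fos lies at chr12:85473890-85477273 (plus strand), Jun at chr4:95049034-95052222, Atf3 at chr1:191170296-191218039 and Dusp1 at chr17:26505590-26562128 (minus strand), and Jun, Junb, Jund, Atf3 and Dusp1 overlap other annotated genes, among them the antisense gene Junos at Jun. The GENCODE spans of Atf3 and Dusp1 begin farther upstream than the RefSeq starts used above, so that the stretches of these 2 genes lie inside the annotated spans.

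The table held 1419 cells, of which 1318 were kept. Fragments had 83 to 93 cells and 1856141 to 5233122 UMIs. Cells were grouped by clustering without the immediate early genes and named from marker genes as basal (294 cells), ER+ luminal (430), ER- luminal (178), fibroblast (252) and myeloid (78). A further 67 cells, led by mast and endothelial genes, stayed without a name, and 19 were pericyte-like. The counts of each class were summed per fragment, and sums of at least 5 cells were used (16 basal, 16 ER+ luminal, 14 ER- luminal, 13 fibroblast and 7 myeloid sums, of 89639 to 2061534 UMIs). The summed level of the 10 basal markers was 18041 to 20426 CPM (UMIs scaled to a common total per sum) in nipple basal cells, 22063 to 28043 CPM in duct basal cells and 4542 to 8670 CPM in TEB basal cells, against at most 3332 CPM in any luminal sum. ER+ luminal markers summed to 14348 to 22976 CPM, ER- luminal markers to 18547 to 39585 CPM, fibroblast markers to 19513 to 50235 CPM and myeloid markers to 20221 to 36762 CPM in their own class, with none of them at 0 in all sums of a location. Nipple and duct basal cells formed 1 cluster (96 and 115 cells), and 82 of the 83 cells of a second basal cluster came from TEBs. The 95 well barcodes were used on several plates (33 of them on all 16), as the plate design implies. RNA of other wells can carry a plate's barcodes. Judged from markers that a class should lack, it made up a mean of 11.8% of the UMIs of basal sums (17.4% ± 7.23, SD, n = 6, in ducts), 8.31% in ER+ luminal, 6.66% in ER- luminal, 6.94% in fibroblast and 9.66% in myeloid sums.

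The 10 genes were found in every class, and all 10 passed the filter on low counts in every fit. Together they took a median of 0.405% of the UMIs of an ER+ luminal sum (0.349 to 0.572% over 16 fragments), 0.321% in ER- luminal (0.258 to 0.432%), 0.256% in basal (0.172 to 0.497%) and 0.299% in fibroblast sums (0.191 to 0.399%). In the 7 myeloid sums the median was 0.422% (0.276 to 0.825%). The ranges of all classes overlapped. Among these 5 classes the genes did not share 1 order of means: Jun, Fos and Ier3 were highest in ER+ luminal cells, Fosb and Egr1 in fibroblasts, and Dusp1, Jund, Junb and Atf3 in the myeloid cells, whereas Ier2 stood at nearly the same level in the 4 larger classes. Junb and Atf3 were each still higher in ER+ luminal than in myeloid cells in 3 of 7 fragments. Dusp1 was higher in fibroblasts than in myeloid cells in 3 of 6 fragments, and Jund in 2 of 6. Ier3 was higher in ER+ than in ER- luminal cells in 8 of 14 fragments and than in myeloid cells in 4 of 7. Fos was higher in ER+ luminal than in myeloid cells in 5 of 7. The myeloid sums came from 5 TEBs and 2 ducts, as nipples had too few myeloid cells. The 19 pericyte-like cells, too few to sum per fragment, had pooled levels of 1198 CPM of Ier3 (341 UMIs), 1314 CPM of Junb (374 UMIs) and 562 CPM of Atf3 (160 UMIs), with no replicate.

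**Figure D1:**
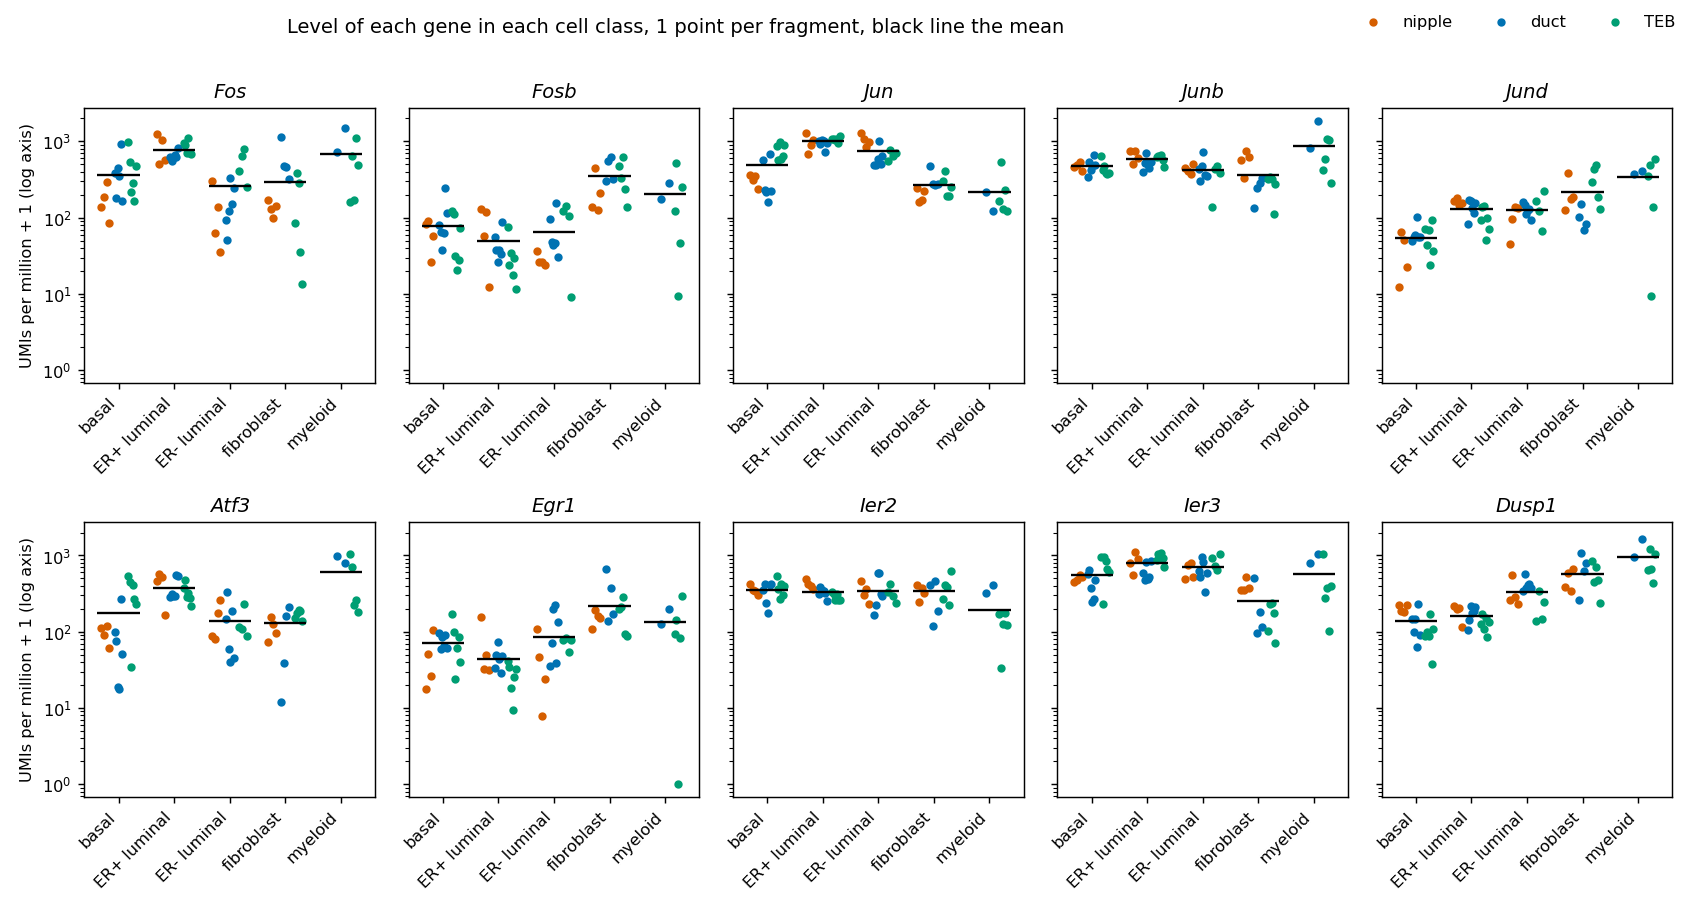
Level of each of the 10 genes by cell class (log axis, CPM + 1), with 1 point per fragment coloured by location and a black line at the mean. Jun runs from a mean of 999.8 CPM in ER+ luminal to 265 CPM in fibroblast sums, Fosb from 346 CPM in fibroblasts to 48.3 CPM in ER+ luminal sums, and the Ier2 points of basal, luminal and fibroblast sums cover the same range.

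Fos, the partner that Jun needs for its strongest DNA binding, averaged 771 ± 224 CPM (SD, n = 16) in ER+ luminal, 364 ± 267 (n = 16) in basal, 289 ± 303 (n = 13) in fibroblast and 259.9 ± 229 (n = 14) in ER- luminal sums, and 683 ± 485 (n = 7) in myeloid sums. Its lowest, median and highest fragments were 511, 685 and 1269 CPM in ER+ luminal cells but 34.4, 199 and 801 CPM in ER- luminal cells. Within fragments, Fos was higher in ER+ than in ER- luminal cells in 14 of 14, and higher in ER+ luminal than in basal cells in 14 of 16. Fosb had another pattern: it averaged 346 ± 181 CPM in fibroblasts (lowest 125, median 317, highest 623), above 77.3 ± 54.7 in basal, 64.2 ± 49.0 in ER- luminal and 48.3 ± 36.2 CPM in ER+ luminal sums. It was higher in fibroblasts than in the basal and ER+ luminal cells of the same fragment in 13 of 13 fragments each, and than in ER- luminal cells in 12 of 12. Myeloid sums spread from 8.47 to 513 CPM of Fosb, with a median of 177.

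Jun averaged 999.8 ± 149 CPM in ER+ luminal (lowest 682, median 1024, highest 1301), 755 ± 251 in ER- luminal (489.8, 671 and 1291), 492 ± 268 in basal (161, 463 and 968), 265 ± 90.1 in fibroblast (158, 252 and 469) and 217 ± 147 CPM in myeloid sums (121, 166 and 535). No fragment had more Jun in basal than in ER+ luminal cells (0 of 16), and every fragment had more in ER+ luminal cells than in fibroblasts (13 of 13) and in myeloid cells (7 of 7). Fibroblast and myeloid levels, the neighbours at the low end, overlapped over most of their range.

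Junb, which can hold Jun's activity in check, had the narrowest span of the Jun family. It averaged 579 ± 107 CPM in ER+ luminal, 471 ± 93.7 in basal, 417 ± 129 in ER- luminal and 357 ± 185 in fibroblast sums, all overlapping, and 869 ± 528 CPM in the 7 myeloid sums. Jund, the member made steadily in many resting cells, was lowest in basal sums at a mean of 53.4 CPM (lowest 11.3, median 54.8, highest 102), against 128 ± 39.2 in ER+ luminal, 125 ± 44.2 in ER- luminal, 216 ± 140.1 in fibroblast and 337 ± 199.8 in myeloid sums. It was lower in basal cells than in ER+ luminal cells in 16 of 16 fragments, than in ER- luminal cells in 14 of 14, than in fibroblasts in 13 of 13 and than in myeloid cells in 6 of 7. The ER+ and ER- luminal levels of Jund did not differ beyond their spread.

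Atf3 averaged 372 ± 129 CPM in ER+ luminal, 177 ± 166 in basal, 139 ± 88.2 in ER- luminal and 131 ± 60.8 in fibroblast sums, with 599 ± 371 in myeloid sums. Basal fragments spread from 16.9 to 544 CPM, the widest relative spread of the 10 genes in that class (SD 93.7% of the mean). Egr1 averaged 217 ± 154 CPM in fibroblast, 134 ± 93.6 in myeloid, 83.6 ± 63.5 in ER- luminal, 70.6 ± 38.5 in basal and 43.3 ± 33.2 in ER+ luminal sums. It was higher in fibroblasts than in basal cells of the same fragment in 13 of 13 and than in ER+ luminal cells in 12 of 13.

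Ier2 averaged 356 ± 86.7 CPM in basal, 342 ± 128 in ER- luminal, 341 ± 134 in fibroblast and 335 ± 65.8 in ER+ luminal sums, and 194 ± 129.6 in myeloid sums. None of the first 4 could be ranked against its neighbour. Ier3 averaged 791 ± 211 CPM in ER+ luminal, 699 ± 207 in ER- luminal, 577 ± 381 in myeloid, 549.5 ± 226 in basal and 255 ± 154 in fibroblast sums, and it was higher in ER- luminal cells than in fibroblasts in 12 of 12 fragments. Dusp1, the feedback phosphatase, averaged 571 ± 244 CPM in fibroblast (lowest 237, median 592, highest 1064), 334 ± 129 in ER- luminal (138, 338 and 565), 159 ± 44.0 in ER+ luminal (83.3, 160.3 and 219) and 135 ± 60.2 in basal sums (37.2, 127 and 227), with 943 ± 406 in myeloid sums. Dusp1 was higher in fibroblasts than in basal and ER+ luminal cells in 13 of 13 fragments each. The levels of ER+ luminal and basal cells, the neighbours at the low end, overlapped.

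The design sets cell classes of the same fragment, and thus of the same dissociation and plate, side by side. With the fragment as a block (edgeR quasi-likelihood test, Benjamini-Hochberg adjusted over 7989 genes, threshold 0.05), Jun and Jund were lower in basal cells than in both luminal classes. The log2 difference of Jun (± SE) was -1.18 ± 0.19 against ER+ luminal cells (adjusted p = 1.73e-06) and -0.78 ± 0.20 against ER- luminal cells (adjusted p = 0.0025). That of Jund was -1.36 ± 0.23 (adjusted p = 1.18e-06) and -1.20 ± 0.24 (adjusted p = 5.76e-05). Jun was still higher in basal than in ER- luminal cells in 4 of 14 fragments. In TEBs its mean was 757 ± 176 CPM (SD, n = 6) in basal and 663 ± 87.8 CPM (n = 4) in ER- luminal sums. The basal and ER- luminal means of Jun were 345 and 619 CPM in ducts and 314 and 1050 CPM in nipples. In all, 5 of the 10 genes were lower in basal than in ER+ luminal cells, against 22.6% of all genes tested: besides Jun and Jund these were Atf3 (-1.52 ± 0.33, adjusted p = 0.000197), Fos (-1.31 ± 0.39, adjusted p = 0.00537) and Ier3 (-0.61 ± 0.21, adjusted p = 0.0169). Only Egr1 was higher (0.78 ± 0.31, adjusted p = 0.0366; 22.2% of all genes were higher). The median log2 difference was -0.48 over the 10 genes and 0.02 over all genes. Of these 6 genes, Jun, Jund and Ier3 stayed past the threshold when basal cells that held both a basal and a luminal keratin (Krt5 and Krt18, 10 or more UMIs of each) were left out (166 of 294 basal cells, 77.4% of those of ducts), while Atf3 had -0.85 (adjusted p = 0.0855), Fos -0.84 (adjusted p = 0.173) and Egr1 0.76 (adjusted p = 0.186). The cells left out were 59.8% of nipple and 23.2% of TEB basal cells, and the part of location in these changes was not tested. Atf3 had means of 322 CPM in basal and 326 CPM in ER+ luminal sums of TEBs. These means were 87.7 and 379 CPM in ducts and 94.5 and 429 CPM in nipples. The class by location term of Atf3 did not pass (adjusted p = 0.118).

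Against ER- luminal cells, 3 of the 10 genes were lower in basal cells (11.9% of all genes) and 0 higher (17.2%; 0 also at an unadjusted p under 0.05, and DESeq2 called 3 of the 10 in either direction): Jun, Jund and Dusp1, the last with -1.29 ± 0.20 (adjusted p = 6.86e-07). With the cells positive for both keratins left out, Jun had -0.66 (adjusted p = 0.0625) and the other two held. RNA expected from other wells came to 29.4% of the Jund UMIs of basal sums, the highest share of the 10 genes over all locations. In duct basal sums alone it came to 49.8% of the UMIs of Atf3, 35.2% of Jun, 34.9% of Jund and 31.4% of Dusp1. With RNA expected from other wells subtracted, Jun, Jund and Dusp1 kept these calls.

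Between the luminal classes, 3 genes were higher in ER+ than in ER- cells (15.7% of all genes) and 2 lower (11.1%). Fos was higher by 1.82 ± 0.42 (adjusted p = 0.000743), Atf3 by 1.52 ± 0.35 (adjusted p = 0.000645) and Junb by 0.57 ± 0.16 (adjusted p = 0.00616) on the log2 scale. Dusp1 was lower (-0.99 ± 0.20, adjusted p = 7.65e-05), and so was Egr1 (-0.84 ± 0.33, adjusted p = 0.0484), whose call was lost in 15 of 26 alternatives (its call between basal and ER+ luminal cells was lost in 17 of 26). The median over all genes was 0.12 in this contrast. Jun, Ier3, Jund, Ier2 and Fosb did not pass, with differences of 0.40 ± 0.20, 0.23 ± 0.22, 0.16 ± 0.23, 0.05 ± 0.16 and -0.27 ± 0.34.

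Fibroblasts were set against the mean of the 3 epithelial classes. Of the 10 genes, 4 were higher (26.4% of all genes) and 3 lower (25.5%). Fosb was higher by 2.54 ± 0.25 on the log2 scale (adjusted p = 1.56e-12), Egr1 by 1.95 ± 0.26 (adjusted p = 3.27e-09), Dusp1 by 1.68 ± 0.16 (adjusted p = 2.16e-13) and Jund by 1.23 ± 0.20 (adjusted p = 2.64e-07). Jun (-1.35 ± 0.19, adjusted p = 5.68e-08), Ier3 (-1.33 ± 0.21, adjusted p = 1.15e-06) and Junb (-0.41 ± 0.15, adjusted p = 0.0155) were lower. Ier2 differed by 0.07 ± 0.14, and Fos and Atf3 by -0.60 ± 0.38 and -0.57 ± 0.30, none past the threshold. The summed level of the 10 basal markers in fibroblast sums was 40.2 to 2199 CPM and that of the 8 fibroblast markers 19513 to 50235 CPM. Members of the Jun family thus moved in both directions. The call of Junb was lost after thinning cells and with at least 10 cells per sum (adjusted p of up to 0.121).

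**Figure D2:**
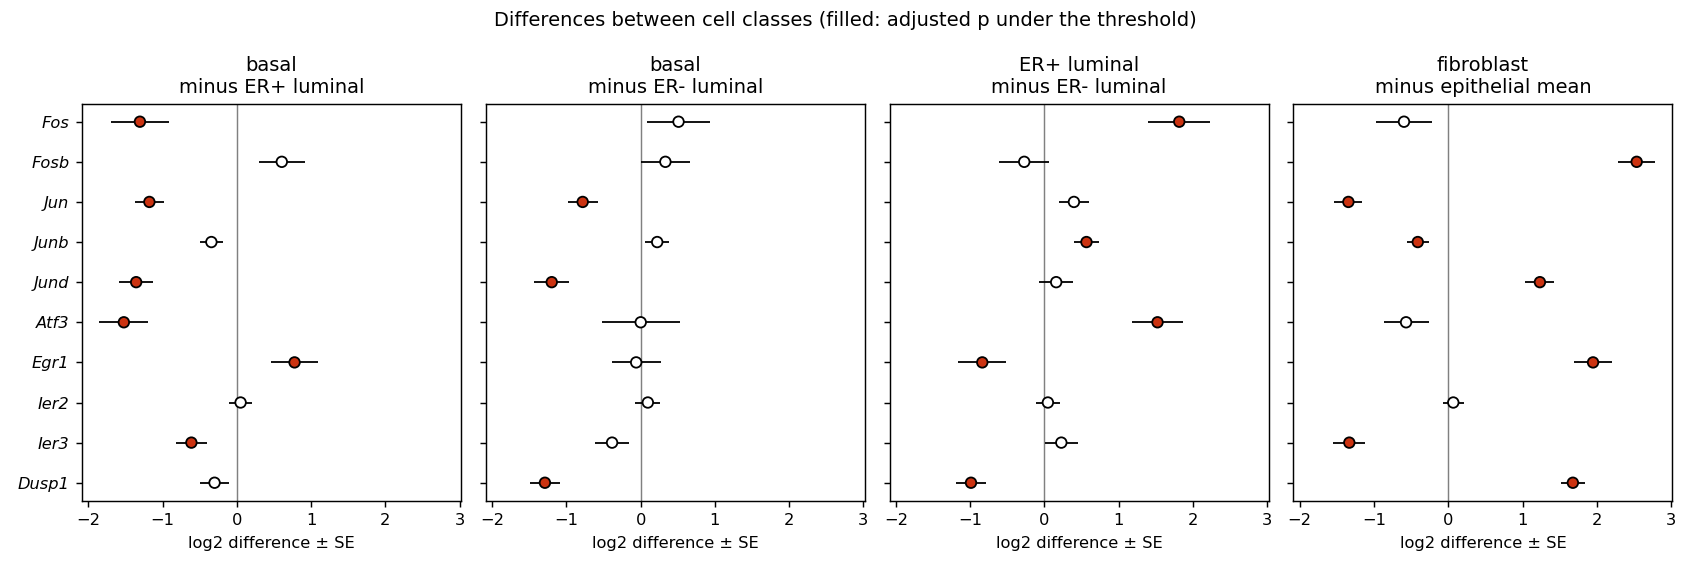
Log2 difference (x axis, with its SE as a bar) of each of the 10 genes in the 4 contrasts between cell classes, filled where the adjusted p is under 0.05. Fosb, Egr1, Dusp1 and Jund lie to the right in the fibroblast panel, between 1.23 and 2.54, and Jun and Jund lie to the left in both basal panels.

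Levels summed over cells can come from many cells with few molecules or from a few cells with many. Each cell was therefore thinned to 5000 UMIs and the share of cells with at least 1 UMI was counted. Jun was seen in 92.6% of 430 ER+ luminal and 88.1% of 177 ER- luminal cells, in 61.2% of 294 basal cells and in 44.8% of 252 fibroblasts (98.1, 95.5, 81.3 and 81.0% of cells without thinning). Fosb was seen in 48.4% of fibroblasts and in at most 18.0% of basal and luminal cells (69.8% against 33.7 to 37.4% without thinning). No class is known to lack these genes, so that no background share can be set beside them, and RNA from other wells enters each share.

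Dusp1 was seen in 84.6% of 78 myeloid cells and 70.2% of fibroblasts, then in 50.8% of ER- luminal, 40.5% of ER+ luminal and 35.0% of basal cells. Fos was seen in 72.1% of ER+ luminal, 49.0% of basal, 37.9% of ER- luminal and 37.3% of fibroblast cells. Jund stood at 18.4% in basal cells and at 34.2, 34.5 and 48.8% in ER+ luminal, ER- luminal and fibroblast cells, and Ier2 between 57.9 and 66.7% in the same 4 classes. The median cell held UMIs of 4 of the 10 genes in the basal class, 6 in ER+ luminal and 5 in ER- luminal, fibroblast and myeloid cells. At least 5 genes were seen in 77.0% of ER+ luminal, 60.5% of ER- luminal, 58.3% of fibroblast, 56.4% of myeloid and 43.2% of basal cells. A cell with none of the 10 was rare: 3 fibroblasts and 2 myeloid cells.

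**Figure D3:**
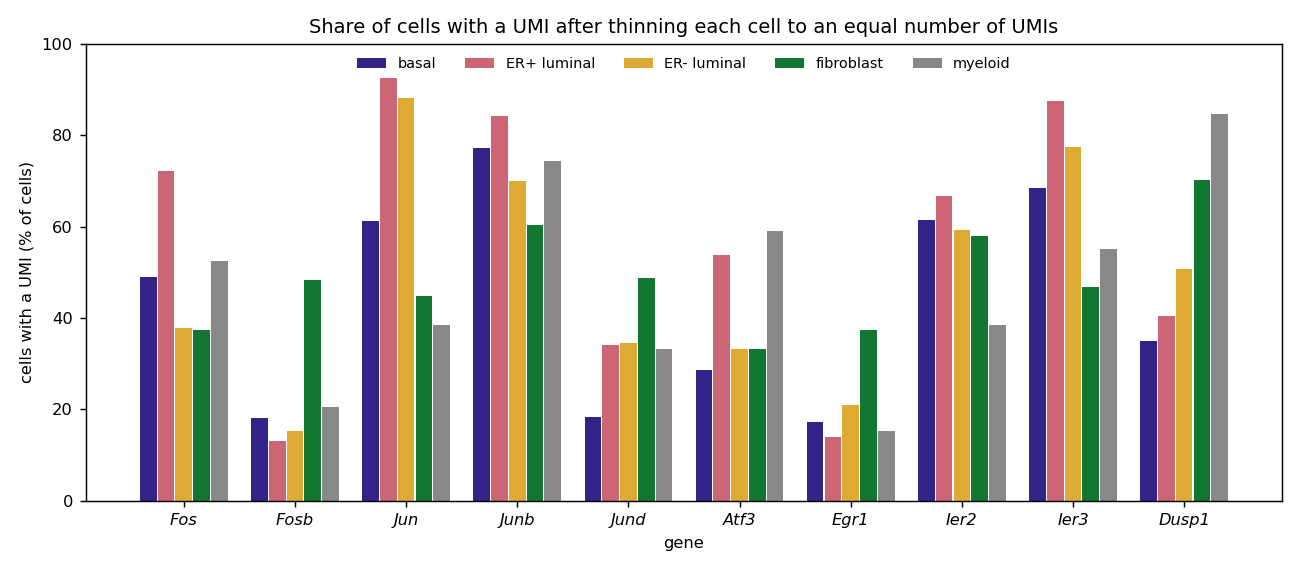
Share of cells with at least 1 UMI of each gene (y axis, percent of cells) after each cell was thinned to 5000 UMIs, with 1 bar per cell class. Jun reaches 92.6% in ER+ luminal and 44.8% in fibroblast cells, Fosb 48.4% in fibroblasts against at most 20.5% in the other classes.

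Over all cells of a class, the counts of Fos varied more than those of most genes with a mean of at least 0.25 UMIs. Its variance was 8.59 times its mean in basal, 7.70 times in ER+ luminal, 6.24 times in ER- luminal and 9.73 times in fibroblast cells at 5000 UMIs, against medians of 1.94, 1.65, 1.92 and 1.92 over 3000 to 3309 genes. Jund in basal cells had 1.69 and Ier2 in ER+ luminal cells 2.29. Fragment means were not removed here, so differences between fragments and locations enter these ratios. The genes behind the medians were not matched to Fos in level. Across cells, the 10 genes moved together only weakly. With the mean of each fragment and class removed, the 45 pairs had a median Pearson's r of 0.07 over 1137 cells (lowest -0.07), and 2 pairs were above 0.2: Fosb with Atf3 (0.27) and Fos with Fosb (0.23). The values describe cells that share libraries, and depth limits them, since many cells hold 0 or 1 UMI of a gene.

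The pair of Fosb and Atf3 had r = 0.36 over 242 fibroblasts, 0.28 over 430 ER+ luminal, 0.27 over 171 ER- luminal and 0.24 over 294 basal cells. Fos and Fosb had 0.32, 0.25 and 0.25 in ER- luminal, ER+ luminal and fibroblast cells. Jun and Dusp1 had 0.27 in ER- luminal cells. Jund went least with the others: the correlation of Jund with the mean of the other 9 genes was 0.10 over cells, against 0.36 for Fos and 0.31 for Egr1. The log of the summed level of the 10 genes, to which the highest genes add most, had r = 0.06 with the log of a cell's UMIs. It had -0.04 with the cell's share of spike-in RNA, and -0.22 with the latter in fibroblasts.

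**Figure D4:**
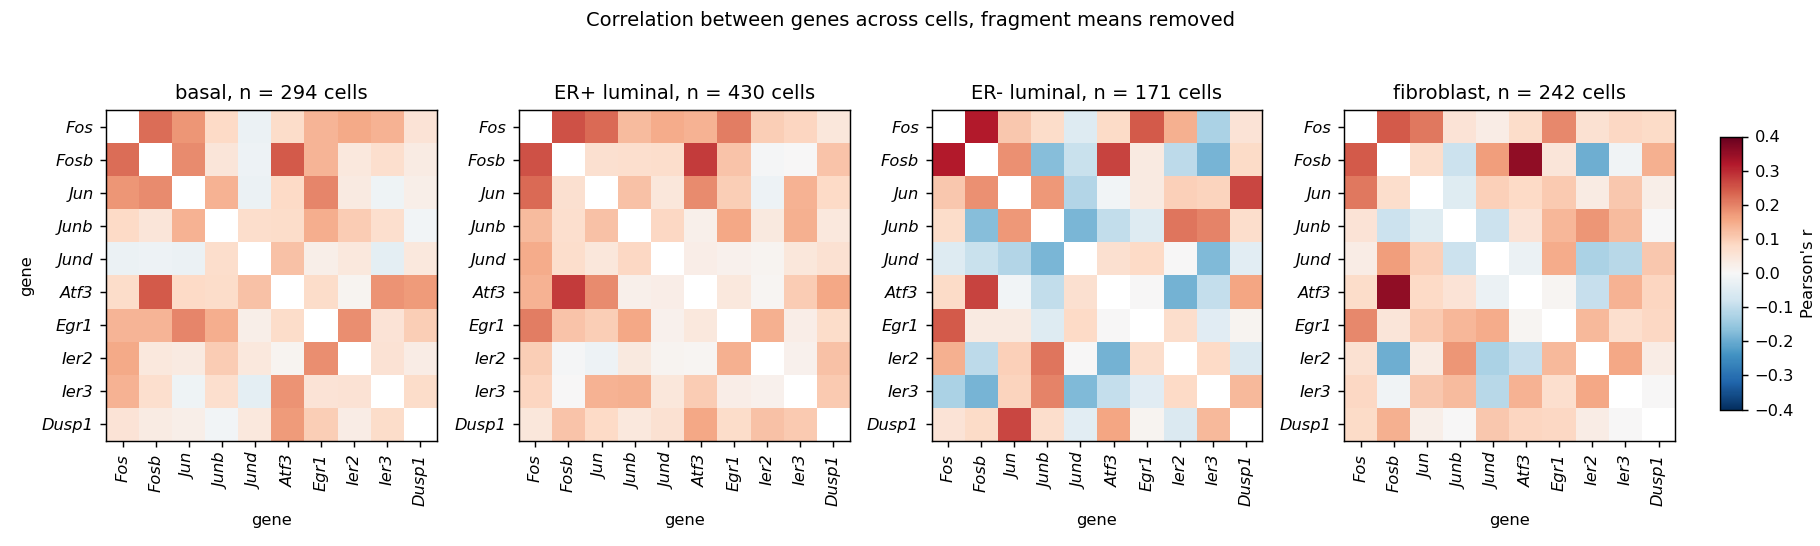
Pearson's r between each pair of the 10 genes across cells of 1 class, with fragment means removed (colour scale from -0.4 to 0.4, axes list the genes). Most squares are pale. Fosb with Atf3 is the darkest pair in fibroblasts (0.36) and ER+ luminal cells (0.28).

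The design asks how cells of 1 type differ between nipple, duct and TEB. Locations were compared within a class over fragments. The labels do not name the mouse of a fragment, so the p-values measure the spread between these fragments. The title numbers of the nipples (N21 to N24) share a first digit that no duct or TEB has, and the labels do not explain it. Anything that the nipples shared in handling cannot be told apart from location where nipples are compared. In basal cells, Dusp1 fell and Jun rose from nipple to TEB. Dusp1 stood at 221, 186, 181 and 220.3 CPM in the 4 nipples, at 148, 97.2, 147, 62.1, 227 and 90.1 CPM in the 6 ducts (lowest 62.1, median 122, highest 227) and at 87.6, 99.2, 86.8, 172, 37.2 and 106 CPM in the 6 TEBs. Every nipple lay above every TEB, and ducts overlapped both. Dusp1 was higher in nipple than in TEB by 1.23 ± 0.34 on the log2 scale (adjusted p = 0.00818).

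Jun stood at 360.2, 313, 346 and 238 CPM in basal cells of the 4 nipples, at 566, 231, 217, 161, 677 and 220.1 CPM in the ducts and at 872, 578, 968, 585, 636 and 902 CPM in the TEBs. All TEBs lay above all nipples, the duct D61 lay in the range of the TEBs, D31 just below it, and the other 4 ducts below the highest nipple. RNA expected from other wells made up 35.2% of the Jun UMIs of duct basal sums, 12.7% in nipples and 10.8% in TEBs. The log2 difference of nipple minus TEB was -1.10 ± 0.35 (adjusted p = 0.0352), and that of duct minus TEB -0.96 ± 0.31 (adjusted p = 0.0561). Across the 3 locations, 2 of the 10 genes passed (Dusp1, adjusted p = 0.0228, and Jun, 0.0294), which is 2 in 10 against 20.6% of all 7316 genes.

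Both were called between nipple and TEB, where the 2 genes were also the 2 without overlap and where 18.7% of all genes were called. Here and below, the share of all genes without overlap was not counted. Nipple against duct gave 0 of the 10 (6.29% of all genes, and 0 of the 10 at an unadjusted p under 0.05), and duct against TEB 0 of the 10 (10.4%, and 2 of the 10 unadjusted). These counts were near the background of the class. Nipple and duct basal cells on the one side and TEB basal cells on the other were different clusters, with median UMIs per cell of 21856, 23146 and 44192.5 in nipple, duct and TEB. Cells with both keratins made up 59.8% of nipple, 77.4% of duct and 23.2% of TEB basal cells. Without them, nipple minus TEB was 1.24 for Dusp1 (adjusted p = 0.11) and -0.92 for Jun (adjusted p = 0.372). With RNA expected from other wells subtracted, the adjusted p of Dusp1 was 0.069 and that of Jun 0.244. The call of Jun was also lost without any 1 of the 4 nipples or without the TEB T31, T33 or T43, with adjusted p of up to 0.122 in these fits.

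Atf3 had the largest difference among basal cells that did not pass. It stood at 111, 89.0, 117 and 60.9 CPM in nipples, at 99.7, 74.0, 18.1, 16.9, 267 and 50.3 CPM in ducts and at 544, 443, 33.2, 413, 271 and 229.9 CPM in TEBs. All TEBs but T33 were above all nipples, and the duct D61 lay among the TEBs. RNA expected from other wells made up 49.8% of the Atf3 UMIs of duct basal sums, 16.9% in nipples and 9.01% in TEBs. Duct minus TEB was -1.68 ± 0.67 and nipple minus TEB -1.60 ± 0.77 (adjusted p = 0.147 and 0.181). Fos ranged from 84.2 to 289 CPM in nipples, from 163 to 936 in ducts and from 164 to 986 in TEBs, all overlapping (nipple minus TEB -1.18 ± 0.61, adjusted p = 0.217). Ier2, Junb, Egr1, Jund, Fosb and Ier3 had differences of at most 0.84 in size among basal cells of the 3 locations.

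In ER+ luminal cells, Ier2 was highest in nipples. It stood at 493, 425, 392 and 360.4 CPM in the 4 nipples, at 308, 386, 347, 341, 317 and 255 CPM in the ducts and at 328, 315, 263, 308, 259.6 and 259.5 CPM in the TEBs. Every nipple lay above every TEB, and ducts overlapped both. Nipple minus TEB was 0.54 ± 0.15 (adjusted p = 0.0283), the only 1 of the 10 genes called there (5.67% of all genes). The call was lost without the nipples N21 or N22 or the TEBs T33, T42 or T43, with adjusted p of up to 0.111, and also with no filter on low counts (adjusted p = 0.0729) and with at least 10 cells per sum (adjusted p = 0.0692).

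Jund, the other gene without overlap between these groups (147 to 178 CPM in nipples, 49.5 to 140.6 CPM in TEBs), had 0.73 ± 0.26 (adjusted p = 0.0914). Egr1 had 1.35 ± 0.43 (adjusted p = 0.0584) and Fosb 1.33 ± 0.50 (adjusted p = 0.12). The ER+ luminal class joined more than 1 cluster: the larger held 16 nipple and 115 TEB cells, the smaller 27 and 58. In the larger and the smaller, Egr1 stood at 31.9 and 46.4 CPM, Fosb at 34.9 and 52.5 and Ier2 at 305 and 327. Jund went the other way (128 and 118 CPM). These are sums over cells, and the part of the clusters in the location differences was not tested. Of the 10 genes, 0 were called across the 3 locations by edgeR (5.7% of all genes), with 6 at an unadjusted p under 0.05 and 1 called by DESeq2. Nipple against duct (2.03%, 3 unadjusted) and duct against TEB (1.82%, 4 unadjusted) also gave 0. Ier3 came nearest in the last, at 480 to 852 CPM in ducts and 699.5 to 1091 CPM in TEBs (-0.51 ± 0.15, adjusted p = 0.0888). Jun differed by at most 0.12 in size between any pair of locations in this class, each with an SE of at most 0.13.

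In ER- luminal cells Jun was highest in nipples, whereas in basal cells nipples lay below TEBs. It stood at 1291, 1081, 847 and 981 CPM in the 4 nipples, at 489.8, 494, 586, 1001, 499.6 and 644 CPM in the 6 ducts and at 554, 760.0, 638 and 698 CPM in the 4 TEBs with enough cells. Nipples and TEBs did not overlap, and the duct D52 lay among the nipples. Nipple minus TEB was 0.79 ± 0.22 (adjusted p = 0.0309, 4.57% of all genes) and nipple minus duct 0.84 ± 0.20 (adjusted p = 0.0194, 1.63% of all genes), and across locations Jun was the 1 gene called (adjusted p = 0.0129, 4.1% of all genes).

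Duct minus TEB had 0 called genes of the 10 (1.14% of all genes, 2 of the 10 unadjusted). After thinning each cell to 5000 UMIs, the Jun differences were 0.71 against TEB (adjusted p = 0.074) and 0.60 against duct (adjusted p = 0.149). With at least 10 cells per sum the first was 0.57 (adjusted p = 0.772). Both calls were also lost without the nipple N21, N22 or N24, the first without the TEB T32, T34 or T42 and the second without the duct D31, D32 or D61 (adjusted p of up to 0.111). Median UMIs per ER- luminal cell were 20497.5 in nipple, 24788 in duct and 38426 in TEB. At a clustering resolution of 1 the class split by location. A cluster of 69 cells held 36 nipple and 6 TEB cells, a cluster of 108 cells 12 and 43, and a cluster of 24 cells 2 and 5. The part of these clusters in the Jun difference was not tested. The summed level of the 10 basal markers in ER- luminal cells was 1736 to 3332 CPM in nipples, 274 to 784 in ducts and 57.8 to 190.1 in TEBs, and its part in the Jun difference was not tested. Fos went the other way, at 301, 62.6, 138 and 34.4 CPM in nipples, 92.0, 49.4, 120.0, 335, 149.7 and 248 CPM in ducts and 413, 646, 801 and 249 CPM in TEBs, with overlap and no call (nipple minus TEB -1.87 ± 0.65, adjusted p = 0.135). Dusp1 was 338 to 565 CPM in ducts and 138 to 339 CPM in TEBs (duct minus TEB 0.97 ± 0.28, adjusted p = 0.0889).

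In fibroblasts, 0 of the 10 genes were called by edgeR across locations (1.7% of all genes, 5 unadjusted, 2 by DESeq2), between nipple and TEB (1.54%, 2 unadjusted), nipple and duct (0.2%, 5 unadjusted) or duct and TEB (0.271%, 3 unadjusted). Only 4 ducts and 5 TEBs had enough fibroblasts, and duct sums held as few as 5 cells. Ier3 was 350.5 to 523 CPM in nipples and 70.6 to 239.5 CPM in TEBs, without overlap (1.38 ± 0.42, adjusted p = 0.118). Junb was 331 to 753 CPM in nipples, 134 to 328 CPM in ducts and 111 to 336 CPM in TEBs (nipple minus TEB 1.15 ± 0.32, adjusted p = 0.0716). The ranges of Fos, Jun and Junb did not overlap between the 4 nipples and the 4 ducts, and the share of all genes without overlap was not counted. Between these locations 0.2% of all genes were called and none of the 10. Fos was 97.1 to 171 CPM in nipples and 323 to 1149 CPM in ducts, Jun 158 to 248 and 266 to 469, with Junb the only 1 of the 3 higher in nipples. The median log2 difference of all genes in this class was 0.13 for nipple minus duct and -0.12 for duct minus TEB, and the values above were not shifted by it.

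Fibroblast locations and clusters also coincided. Of 3 fibroblast clusters, 1 held 115 of the 116 nipple fibroblasts with 29 of ducts and 16 of TEBs, and the other two held mostly TEB cells (64 of 68 and 18 of 24). Junb stood at 547 CPM in the first and at 304 and 185 CPM in the others (3334, 849 and 206 UMIs), Ier3 at 406, 118 and 66.6 CPM, and Jund at 179, 343 and 391 CPM. These are sums over cells without a test.

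**Figure D5:**
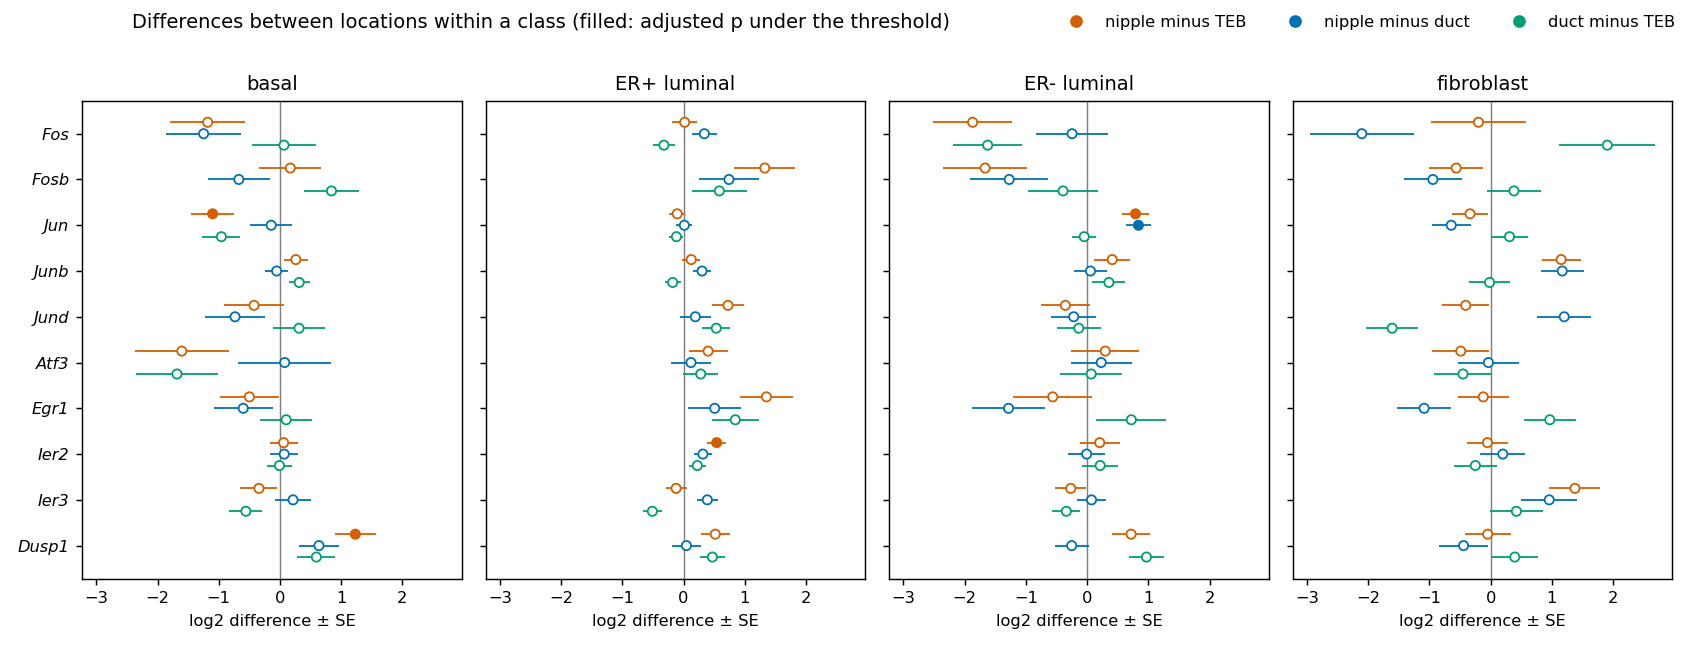
Log2 difference (x axis, with its SE as a bar) of each of the 10 genes between pairs of locations within basal, ER+ luminal, ER- luminal and fibroblast cells, filled where the adjusted p is under 0.05. The 5 filled points are Dusp1 (1.23) and Jun (-1.10) in basal cells, Ier2 (0.54) in ER+ luminal cells and Jun (0.79 and 0.84) in ER- luminal cells.

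Whether the difference between locations itself differed between classes was tested with a class by location term. It passed for 0 of the 10 genes between basal and ER+ luminal cells by edgeR (6.85% of 9369 genes, 4 of the 10 unadjusted, 2 by DESeq2) and for 0 between basal and ER- luminal cells (2.79% of 7944 genes, 2 unadjusted, 2 by DESeq2). Jun, whose nipple minus TEB difference had opposite signs in basal and ER- luminal cells, had an adjusted p of 0.188, and 0.226 between basal and ER+ luminal cells. Atf3 had 0.118 in the latter.

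Classes of 1 fragment went through the same dissociation. With location means removed, the level of a gene in basal cells did not go with its level in ER+ luminal cells of the same fragment for any of the 10 genes (16 fragments, permutation p adjusted over the 10 genes). The highest was Atf3 (Pearson's r = 0.43, permutation p = 0.0451, adjusted p = 0.451, Spearman's rho = 0.46, permutation p = 0.0953, adjusted p = 0.705), with r = 0.40 after leaving out T33 and D61. The other 9 genes lay between r = -0.26 (Jun, permutation p = 0.313, adjusted p = 0.721, rho = -0.26, permutation p = 0.322, adjusted p = 0.743) and r = 0.38 (Jund, permutation p = 0.116, adjusted p = 0.58, rho = 0.39, permutation p = 0.141, adjusted p = 0.705). Classes of a fragment share the plate and RNA from other wells.

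A mean over the 10 genes, each as a z score within class and location, was above 0 in all 3 classes of the TEB T31 (0.21 to 1.12) and below 0 in all 4 classes of the TEBs T34 (-0.92 to -0.02) and T42 (-0.98 to -0.21). In the other 4-class fragments the classes had both signs. T31, the fragment with the highest mean (0.56), had 986 CPM of Fos in basal but 85.2 CPM in fibroblast sums.

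Other genes of the same response were taken from 4 lists. The list of other immediate early genes has 52 genes, with the inducible factors Klf4, Myc and Irf1, feedback inhibitors such as Socs3 and Errfi1, and stress genes such as Gadd45g. In basal cells, 16 of 42 tested were called between nipple and TEB, 14 higher in nipple and 2 lower (18.7% of all genes). The median log2 difference of the list was 0.44, against -0.05 over all genes and -0.38 over the 10 genes. Errfi1, which inhibits the EGF receptor, was higher in nipple by 2.18 ± 0.29 (adjusted p = 9.35e-07), and Irf1 and Socs3 by 2.14 ± 0.55 and 1.72 ± 0.41. These lists were chosen with earlier results of these data known.

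In ER+ luminal cells, 7 of 43 of this list were called between nipple and TEB (5 higher, 2 lower; 5.67% of all genes), led by Gadd45g (1.32 ± 0.21), Maff (1.28 ± 0.39) and Errfi1 (1.19 ± 0.20). In ER- luminal cells 4 of 36 were called, all higher in nipple (4.57% of all genes), with Klf4 at 2.92 ± 0.74 and Myc at 1.77 ± 0.38. In fibroblasts 1 of 46 was called, Cebpb (1.68 ± 0.28; 1.54% of all genes). Between classes, 32 of 44 differed between fibroblasts and epithelial cells, 26 higher and 6 lower (26.4% and 25.5% of all genes), with Egr2 at 3.58 ± 0.38, Cxcl1 at 2.95 ± 0.43 and the phosphatase gene Dusp6 at -3.56 ± 0.29. Dusp6 went the opposite way to Dusp1. Basal and ER+ luminal cells differed in 24 of 44 (10 higher in basal and 14 lower, against 22.2% and 22.6% of all genes). Basal and ER- luminal cells differed in 23 (8 and 15, against 17.2% and 11.9%), and ER+ and ER- luminal cells in 27 (9 higher in ER+ and 18 lower, against 15.7% and 11.1%).

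Among 11 other AP-1 partners, 3 of 6 tested were higher in nipple than in TEB basal cells (18.7% of all genes were called): Maff (1.34 ± 0.45), Mafk (1.26 ± 0.39) and Atf4 (0.65 ± 0.20). This list shares genes with the other immediate early genes, Maff among them, so the counts of the 2 lists are not separate. In ER+ luminal cells 2 of 7 were (5.67% of all genes), Maff and Atf4 (0.70 ± 0.17). In ER- luminal cells edgeR called 0 of 6 (4.57% of all genes) and in fibroblasts 0 of 8 (1.54%), with 1 unadjusted in each. Fibroblasts had 5 of 7 higher than epithelial cells (26.4% of all genes), among them Maff (1.59 ± 0.23) and Fosl2 (1.43 ± 0.32), the Fos family member that acts later. Batf, with 680 UMIs in ER+ luminal, 58 in fibroblast, 29 in ER- luminal and 21 in basal sums, was higher in ER+ luminal than in both other epithelial classes.

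The heat shock list, which marks protein damage rather than mitogen signals, did not move 1 way: 3 of 15 were called between nipple and TEB basal cells (18.7% of all genes), Hspb1 higher (1.05 ± 0.15), Hsp90aa1 higher (0.50 ± 0.15) and Hspa5, the chaperone of the endoplasmic reticulum, lower (-0.69 ± 0.17). In ER+ luminal cells 2 of 15 were called, both higher in nipple (5.67% of all genes), with Hspa8 at 0.55 ± 0.13. In ER- luminal cells 3 of 14 were called (4.57% of all genes), with Hspa8 (-0.78 ± 0.21) and Hspe1 lower and Hspb1 higher. In fibroblasts edgeR called 0 of 15 (1.54% of all genes, 2 unadjusted). Against epithelial cells, fibroblasts differed in 12 of 15 (9 higher and 3 lower, against 26.4% and 25.5% of all genes), with Hspb1 at -2.69 ± 0.29 and Bag3 at 2.11 ± 0.16.

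Of the upstream regulators (MAP kinases and the factors that bind the promoters of the immediate early genes), 1 of 11 tested was called between nipple and TEB basal cells, Elk3, a partner of serum response factor (-2.01 ± 0.59; 18.7% of all genes). By edgeR 0 of 11, 0 of 6 and 0 of 13 were called in ER+ luminal, ER- luminal and fibroblast cells (2, 0 and 2 unadjusted, against 5.67%, 4.57% and 1.54% of all genes called). Between classes, Egfr was higher in fibroblasts than in epithelial cells by 4.19 ± 0.21 on the log2 scale, and 4 of 11 differed there, 3 higher and 1 lower (26.4% and 25.5% of all genes).

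Finally, the genes outside the 10 that went most with their mean were sought among 3356 genes of at least 50 CPM. Over 59 sums, with each class and location mean removed, the highest Pearson's r were those of Btg2 (0.53), Socs3 (0.49), Cd248 (0.46) and Cast (0.46), and over 1137 cells those of Btg2 (0.31), Zfp36 (0.31), Klf6 (0.30) and Socs3 (0.23), with Ccnl1, Cyr61, Dnajb1, Csrnp1 and Ppp1r15a (0.22 to 0.19). Btg2, an inducible brake on proliferation, and Socs3, an inhibitor of cytokine signalling, were in both. These are the highest of 3356 values, and no chance level for such a maximum was computed. Among the 10 genes themselves, Fos went most with the mean of the other 9 over the sums (0.57), and Jund least (-0.04).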

How the data were processed

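Single-cell RNA-seq libraries of 16 mammary fragments were analysed. According to the study's methods, the authors trimmed the reads (Trim Galore), took cell barcodes and UMIs with UMI-tools, mapped with STAR to mm10 (uniquely mapped reads), assigned reads with featureCounts and deposited raw UMI counts per gene and cell, not normalized. The strand setting is not given in the sources used here, so genes with overlapping neighbours (Jun, Junb, Jund, Atf3 and Dusp1 in the annotation) may share reads with them. The deposited table holds 1419 cells. Cells were kept (1318) with 5000 to 120000 UMIs, 200 to 6000 detected genes and an ERCC share of no more than 5%. Mitochondrial genes were not analysed here, and doublets were not called.

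Cells were clustered in Seurat 5.3.0 (2000 variable genes without immediate early genes, 14 components, resolution 0.5) and named from marker lists. UMI counts were summed per fragment and class and tested in edgeR 4.0.16 (TMM, filterByExpr, quasi-likelihood, Benjamini-Hochberg over all genes tested). The SE of a log2 difference was taken as its size over the square root of F. Levels (CPM) are UMIs scaled to a common total per sum. RNA from other wells was estimated as the median share of marker genes that a class lacks over their share in all cells of the fragment. The tests were also run on simulated counts with the same spread for every gene and only large changes. That run says little about small differences or genes with a wider spread. Alternatives were DESeq2 1.42.0, other scaling, filters, thinning, cell minimum, clustering and ERCC limits, subtraction of RNA of other wells, and leaving out each fragment. Intervals and SEs cover the spread between sums only.

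The 10 genes and the 4 lists were chosen with earlier results of these data known. Other genes were named where they were called with the 3 largest differences of their list in a comparison described, or were among the 10 genes most correlated with the mean. Some results under this rule are not reported here. Classes were named from marker lists for basal, ER+ luminal, ER- luminal, fibroblast, myeloid and pericyte cells, the last too few to sum. The smallest sum held 5 cells, which adds counting error. Promoter motifs were chosen after the data were seen.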

Additional observations from a re-analysis of the deposited data

Results flagged for a closer look

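For each gene, the fragments of 1 class and location (groups of 4 to 6) were searched for a single fragment that stood apart from the others by Dixon's test. Of 120 groups, 14 were flagged, and chance flags about 1 in 20. No explanation was tested for any of them.

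The duct D61 stood apart in 3 groups. Fos was 936 CPM in its basal cells (163 to 442 CPM in the other ducts) and Atf3 267 CPM (16.9 to 99.7 CPM), whereas Jun in its ER+ luminal cells was 732 CPM (928 to 1045 CPM in the others). The duct D52 had 1001 CPM of Jun in ER- luminal cells (489.8 to 644 CPM) and 102 CPM of Jund in basal cells (48.2 to 58.4 CPM, 36 UMIs). Jun in fibroblasts of the duct D32 was 469 CPM (266 to 278 CPM), from 42 UMIs.

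Among TEBs, T31 had 74.9 CPM of Fosb in ER+ luminal cells (10.7 to 33.5 CPM) and 644 CPM of Junb in basal cells (377 to 472 CPM). T34 was low, with 111 CPM of Junb in fibroblasts (277 to 336 CPM) and 52.8 CPM of Egr1 in ER- luminal cells (76.7 to 81.2 CPM, 12 UMIs). Among nipples, N21 had 155 CPM of Egr1 in ER+ luminal cells (30.3 to 48.6 CPM), N24 had 115 CPM of Dusp1 there (199.8 to 213 CPM), N22 had 551 CPM of Dusp1 in ER- luminal cells (229 to 281 CPM), and N23 had 523 CPM of Ier3 in fibroblasts (350.5 to 378 CPM).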

How the results depend on the processing

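None of the 26 called differences of single genes changed direction under the alternatives run for them: 234 of 260 values under other alternatives and 371 of 416 values with 1 fragment left out stayed past the threshold. The counts of called genes between ER+ and ER- luminal cells (4 to 5), basal and ER- luminal cells (2 to 4) and fibroblast and epithelial cells (6 to 9) stayed within 1.5 times the main count. Across locations, the basal count of 2 became 1 after thinning to 5000 UMIs or with at least 10 cells per sum and 0 with RNA of other wells subtracted, and lay between 0 and 3 with 1 fragment left out (0 without N24, 1 without N21, N22, N23, T31, T42 or T43). The ER+ luminal count of 0 became 1 with DESeq2, 4 after thinning, 1 with at least 10 cells and 1 with an ERCC limit of 10%, and 0 to 1 with 1 fragment left out (1 without D62, N22 or T43). The ER- luminal count of 1 became 2 without the filter and 0 with at least 10 cells, and 1 to 2 with 1 fragment left out (2 without N22 or T33). The fibroblast count of 0 became 2 with DESeq2, 3 without the filter and 2 with at least 10 cells, and 0 to 2 with 1 fragment left out (2 without D32 or T42, 1 without D62). The class by location count of 0 became 2, 3, 2 and 1 (basal and ER+ luminal; DESeq2, no filter, thinning, at least 10 cells) and 2, 2 and 1 (basal and ER- luminal; the first 3 of these), and 0 to 1 with 1 fragment left out in both (1 without D61 or T33, and without D52, D61 or D62). The fit with at least 10 cells could not be run for the second. In an alternative chosen after seeing the data, leaving out basal cells with both keratins gave 0 across locations in basal cells, 3 between basal and ER+ luminal cells (main 6) and 2 for the class by location term with ER+ luminal cells. The cause was not tested in any of these. Sums of few cells and, for low genes such as Jund and Egr1 in basal cells, few UMIs limit the precision.

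Duct and TEB fragments share only the title numbers 31 and 32. The numbers are not shown to pair fragments: the deviations of same-numbered fragments had correlations of 0.002 and -0.006 in basal and -0.014 and -0.004 in ER+ luminal cells over all genes tested. With the number as a replicate block, duct minus TEB called 2 of the 10 genes in basal cells (Atf3 -2.36 and Fos -1.31; 278 of 7316 genes) and 2 in ER+ luminal cells (Fos -0.60 and Ier3 -0.77; 275 of 8832 genes), where the fit without the block called 0. Only the numbers 31 and 32 held both locations, so under the block these differences rest on D31, T31, D32 and T32. Almost no spread between fragments was left to measure, so these calls lean on a spread shared over genes. Under the block, differences not called without it changed sign in basal cells for Fos (0.07 without the block), Fosb (0.84 to -0.55), Ier3 (-0.56 to 0.50), Junb (0.31 to -0.14) and Egr1 (0.10 to -0.65), and in ER+ luminal cells for Atf3 (0.28 to -0.44) and Dusp1 (0.47 to -0.19). With only the numbers that start with 3, 0 of the 10 were called in basal cells and 1 each in ER+ luminal (Ier3, -0.82) and ER- luminal cells (Fos, -3.04). In fibroblasts this left D32 as the only duct (5 cells, 89639 UMIs), and Atf3 differed by -3.98 without a replicate duct. The lowest duct level of Atf3 in fibroblasts was 11.2 CPM. The block could not be fitted in ER- luminal and fibroblast cells.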
